A study of Mus musculus with 21 samples.

Results

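A set of 10 genes that the transcription factor p53 is known to switch on was followed through the culture of mouse nephron progenitors: Cdkn1a, Perp, Mdm2, Ccng1, Bax, Bbc3, Trp53inp1, Sesn2, Zmat3 and Phlda3. They were chosen by name as a p53 target list, with earlier results of these data known. Of the 10, 9 had a named probe set, 16 probe sets in all, among 18193 named genes. Bax was not analysed here. The cells were nephron progenitors of the cap mesenchyme, sorted at E16.5 by green fluorescent protein from a Six2GFPcre BAC transgene, so every group carried that transgene, on a mixed background. Each of 7 groups had 3 arrays. In the labels' terms these were aggregates given BIO for 24 h and then DMSO for 24 h, aggregates given BIO for 48 h, aggregates given BIO for 24 h, aggregates given DMSO for 24 h, dispersed cells given BIO for 24 h, dispersed cells given DMSO for 24 h, and freshly sorted cells. The cultures held 40000 cells a sample in DMEM with 10% serum, and BIO was used at 4 µM against an equal volume of DMSO. BIO inhibits the kinase GSK3, which lets beta-catenin accumulate as it does in canonical Wnt signalling. No group had 48 h of DMSO alone, so a change between 24 and 48 h cannot be told apart from time in culture, while the 2 groups at 48 h differ in the medium of the second day. The 3 arrays of a group are called biological replicates, but no label ties them to different animals, sorts or wells, so each p-value rests on a spread between arrays that may be partly technical.

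The protein p53 is held at a low level in unstressed cells because Mdm2, itself one of its targets, tags it for destruction. DNA damage, oxidative stress, ribosome stress and other insults release p53, which then binds paired decamers in DNA and raises genes that stop the cell cycle, repair damage, restrain growth or start cell death. In the developing kidney too much p53 activity is known to deplete nephron progenitors, and mouse mutants that lack Mdm2 in these cells lose them. The transcript level of the target genes is a readout of the pathway, not of p53 protein, which these arrays do not measure. The probe table names no probe set for Trp53, which was not analysed here.

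The paired decamer that p53 binds was looked for in the RefSeq promoter windows (build GRCm38.p6, 250 bases before to 50 after each annotated start), which hold 6 of the 9 genes in 9 windows. The search was for the canonical p53 decamer, on both strands because that motif reads alike on each, and for a pair of decamers back to back, 20 letters with at most 1 mismatch. An exact decamer lay in 3 of the 9 windows and in 8.36% of all 32851 windows, and a pair lay in 2 of the 9 and in 0.0883% of all. The 3 stretches are shown because they belong to the cell cycle inhibitor, the cyclin and the p53 inhibitor whose levels open the results. Capitals mark every exact decamer and every pair, and the distance is that from the first letter of the pair or decamer to the annotated start.
Cdkn1a, chr17:29090903-29090972, plus strand, 51 bases before the start: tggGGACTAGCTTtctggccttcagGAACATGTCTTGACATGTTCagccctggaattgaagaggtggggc
Ccng1, chr11:40755437-40755506, minus strand, 195 bases before the start: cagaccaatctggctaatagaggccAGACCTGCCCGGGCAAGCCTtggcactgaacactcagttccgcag
Mdm2, chr10:117710910-117710969, minus strand, 186 bases before the start: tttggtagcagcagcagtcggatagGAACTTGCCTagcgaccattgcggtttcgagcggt
The Cdkn1a stretch belongs to the upstream of its 2 RefSeq starts, which lie 2790 bases apart, and its window holds 2 exact decamers. The window at the other Cdkn1a start and those of Phlda3, Sesn2 and Bbc3 (3 windows) held none, which says only that these letters are not in those windows. The windows for Perp, Trp53inp1 and Zmat3 were not analysed here. A match is a description of the letters and not a binding site.

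The deposited signals were compared as quantile-normalized log2(signal + 1), called the level below, and a change is a difference of mean levels ± SE from 1 limma fit over all 21 arrays. A gene was called at an adjusted p under 0.05, with p-values adjusted over all 45037 probe sets tested and each gene counted by its brightest probe set. Background was a level of 5.42, set at the 95th percentile of the levels of 27 bacterial controls. Of the named genes, 76.0 to 79.6% lay above it on each array, and the mean correlation of an array with its replicates was 0.970 to 0.980. The summed signal of the progenitor markers, 9 of 10 measured, was 7440 to 15300 in the cultures against 36300 to 37400 in fresh cells, with 7 to 9 of the 9 called lower in each culture and none higher. Six2 stayed above background in all groups, and Cited1 was below it in all 6 cultures. Stromal markers summed to 12600 to 13700 in fresh cells, 13300 to 14200 in aggregates in DMSO and 12400 to 13400 in dispersed cells in DMSO. In the cultures given BIO they summed to 1950 to 11500. The mix of progenitor and stromal signal thus differed between fresh cells and cultures, and its part in the p53 target levels was not tested. In a bulk sample, fewer cells of a type and less RNA per cell cannot be told apart. The 3′ beta-actin control was 2669 to 5410 on the 3 arrays of aggregates in BIO for 24 h, against 6344 to 12844 on the other 18, and results that rest on that group are also given with this control fitted as a covariate where that changes a call. No other array came as low as that group in this control, so the covariate overlaps with every comparison that uses the group.

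The p53 targets were higher in the cultured samples than in the fresh ones. In aggregates after 24 h in DMSO 8 of the 9 genes were called higher than in fresh cells and none lower, where 16.9% of all 18193 genes were higher and 13.2% lower. The median change of the 9 genes was 1.60, against 0.10 over all genes. Dispersed cells in DMSO gave 8 higher and none lower, with 13.5% of all genes higher and 16.2% lower, and medians of 1.92 against -0.03. With BIO for 24 h all 9 measured genes were higher in aggregates, where 20.0% of all genes were higher and 10.9% lower, and likewise all 9 in dispersed cells, where 10.7% were higher and 11.4% lower. The medians in BIO were 1.62 against 0.18 in aggregates and 1.56 against 0.0 in dispersed cells. At 48 h 6 of the 9 were still called higher than in fresh cells and none lower, both after the switch to DMSO (11.3% of all genes higher, 10.3% lower) and in BIO throughout (16.48% higher, 13.6% lower). The genes no longer called at 48 h were Bbc3, Trp53inp1 and Sesn2, although without the second fresh array Bbc3 was called, at 0.58 after the switch (adjusted p = 0.0464) and 0.68 in BIO throughout (adjusted p = 0.0141). Sesn2 was called at 1.47 after the switch with the Gapdh 3′ over 5′ ratio as a covariate (adjusted p = 0.0173) and at 1.54 in BIO throughout with the beta-actin covariate (adjusted p = 0.00102). All 6 of these comparisons share the 3 fresh arrays and are not independent of each other. Because the list was chosen with earlier results of these data known, its counts beside the shares of all genes are a description only.

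**Figure D1:**
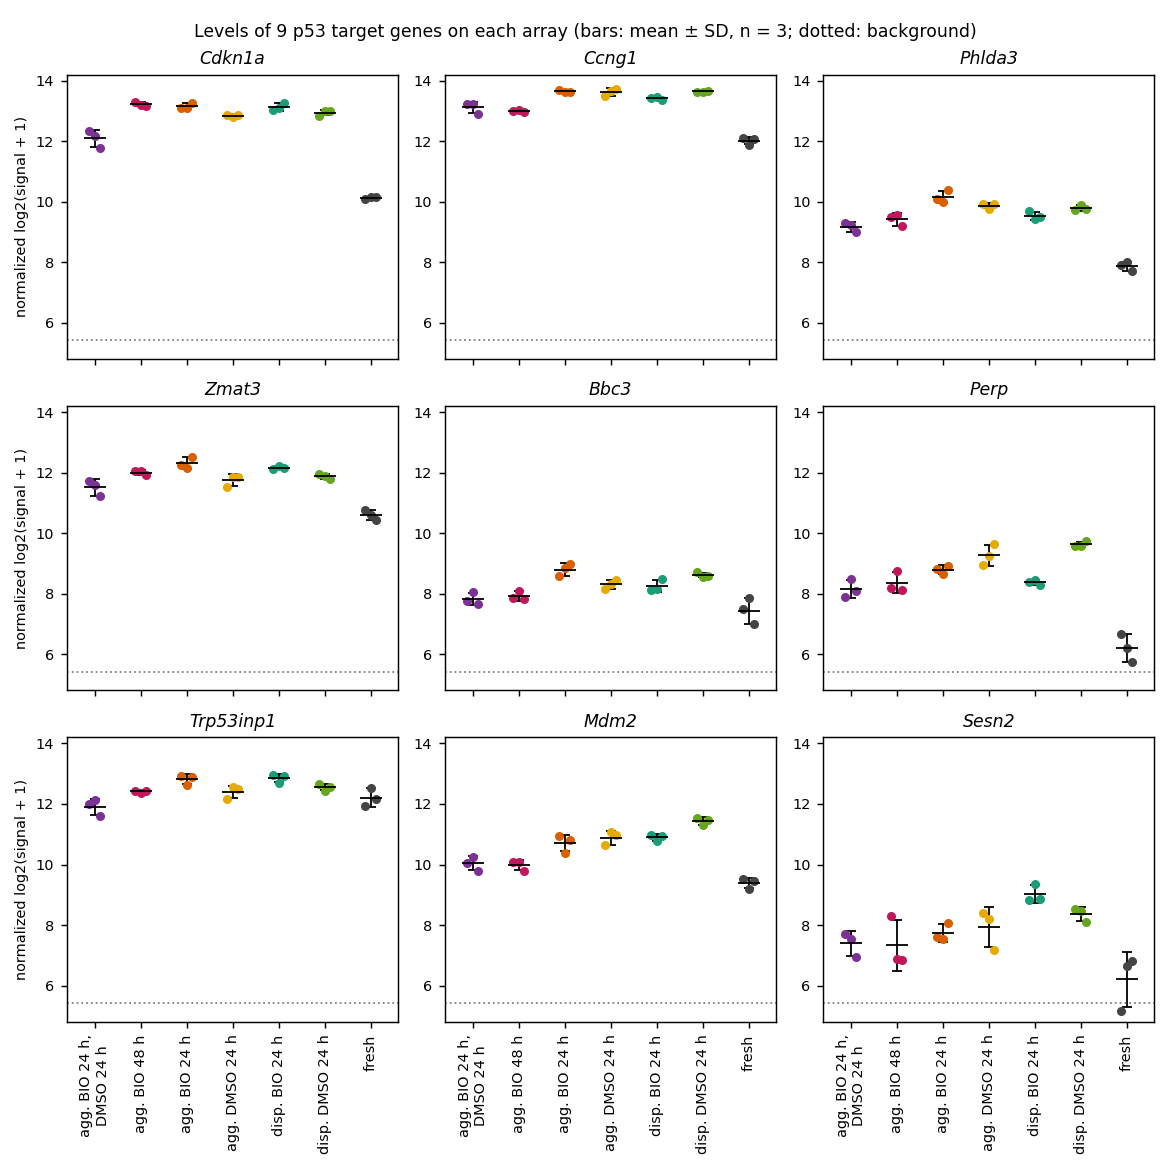
Level of each of the 9 genes on every array, by its brightest probe set, as normalized log2(signal + 1). Columns are the 7 groups, points are the 3 arrays, bars are the mean ± SD and the dotted line is background at 5.42. Cdkn1a stands between 11.76 and 13.29 on all 18 arrays of cultured cells and between 10.10 and 10.15 on the 3 arrays of fresh cells.

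Cdkn1a encodes p21, which blocks cyclin-dependent kinases and halts the cell cycle. Its levels were 13.29, 13.20 and 13.16 in aggregates after BIO for 48 h, and 13.11, 13.10 and 13.26 in aggregates after BIO for 24 h. Dispersed cells in BIO had 13.02, 13.11 and 13.25, and dispersed cells in DMSO had 12.84, 12.98 and 12.99. Aggregates in DMSO for 24 h had 12.87, 12.79 and 12.87, overlapping with dispersed cells in DMSO. All these groups lay within a narrow band near the top of the range. Aggregates switched from BIO to DMSO had 12.32, 12.18 and 11.76. Fresh cells had 10.10, 10.15 and 10.14. Every cultured array was above every fresh array, and the 3 switched arrays were below all other cultured arrays. Against fresh cells the change was 2.72 ± 0.12 in aggregates in DMSO, a 6.57-fold rise (adjusted p = 3.19e-10), and 2.81 ± 0.12 in dispersed cells in DMSO, a 7.0-fold rise (adjusted p = 1.40e-10). Along the order of group means, 4 pairs of neighbours among the 24 h and BIO groups were compared by the fit and none was called, with adjusted p between 0.341 and 0.907. In 1 of them, BIO against DMSO in dispersed cells, the 3 arrays in BIO all lay above the 3 in DMSO.

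Ccng1 encodes cyclin G1, a partner of protein phosphatase 2A and of Mdm2 rather than of a cell cycle kinase. Its levels were 13.48, 13.66 and 13.72 in aggregates in DMSO and 13.63, 13.62 and 13.66 in dispersed cells in DMSO, against 12.11, 11.88 and 12.06 in fresh cells. The cultured and fresh arrays did not overlap, and the changes were 1.60 ± 0.10 (adjusted p = 1.14e-08) and 1.62 ± 0.10 (adjusted p = 8.13e-09). The 2 dimmer probe sets of the gene gave larger changes, 2.41 and 2.75 in aggregates in DMSO. Mdm2, the ubiquitin ligase that closes the p53 feedback loop, had levels of 10.63, 11.06 and 10.96 in aggregates in DMSO and 11.55, 11.31 and 11.46 in dispersed cells in DMSO, against 9.51, 9.20 and 9.47 in fresh cells. No cultured array reached down to a fresh one. It rose by 1.49 ± 0.16 in aggregates (adjusted p = 5.43e-06) and by 2.05 ± 0.16, or 4.13-fold, in dispersed cells (adjusted p = 1.39e-07). At 48 h its rise over fresh cells was 0.65 ± 0.16 after the switch to DMSO (adjusted p = 0.0118) and 0.59 ± 0.16 in BIO throughout (adjusted p = 0.0140). Both 48 h calls were lost without the second fresh array, with adjusted p of 0.0608 after the switch and 0.0690 in BIO throughout. With the mean of the 3 Mdm2 probe sets, of which the dimmest lies around background, the rise was still called in dispersed cells in DMSO, at 1.37 (adjusted p = 0.00225), but not in the other 5 cultures. There the mean gave 0.77 in aggregates in DMSO (adjusted p = 0.0648), 0.59 in aggregates and 0.87 in dispersed cells in BIO for 24 h (adjusted p = 0.148 and 0.0502), 0.55 after the switch (adjusted p = 0.233) and 0.19 in BIO throughout (adjusted p = 0.689).

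Perp encodes a membrane protein of desmosomes that p53 also uses to start cell death. Its levels were 8.93, 9.23 and 9.63 in aggregates in DMSO and 9.58, 9.57 and 9.74 in dispersed cells in DMSO, against 6.65, 6.19 and 5.74 in fresh cells. The fresh arrays lay just above background, and the rise in dispersed cells in DMSO, 3.44 ± 0.23 or 10.9-fold (adjusted p = 1.67e-08), was the largest of the 54 changes from fresh cells among these brightest probe sets. In aggregates in DMSO the rise was 3.07 ± 0.23 (adjusted p = 7.38e-08). Bbc3 encodes PUMA, a BH3-only protein that frees the pore-forming members of the BCL2 family. It had 8.15, 8.33 and 8.44 in aggregates in DMSO and 8.70, 8.56 and 8.58 in dispersed cells in DMSO, against 7.48, 7.85 and 6.99 in fresh cells. The groups did not overlap, although the fresh arrays were widely spread. The rise was 0.86 ± 0.19 in aggregates in DMSO (adjusted p = 0.00257), and with the Gapdh ratio as a covariate it was 0.71 (adjusted p = 0.0912). That ratio was 12.7 to 15.3 in aggregates in DMSO and 8.73 to 11.1 in fresh cells, so this covariate overlaps with the comparison. Fitted on only the 6 arrays compared, the same rise had an adjusted p of 0.0702.

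Phlda3 encodes a small lipid-binding protein that keeps the kinase Akt from the membrane. Its levels were 9.92, 9.77 and 9.91 in aggregates in DMSO and 9.71, 9.89 and 9.77 in dispersed cells in DMSO, against 7.90, 8.0 and 7.70 in fresh cells. It rose by 2.00 ± 0.14, or 4.0-fold, in aggregates (adjusted p = 2.98e-08) and by 1.92 ± 0.14 in dispersed cells (adjusted p = 3.86e-08). The cultured arrays all lay well above the fresh ones. Zmat3 encodes a zinc-finger protein that binds RNA. It had 11.51, 11.86 and 11.85 in aggregates in DMSO and 11.95, 11.88 and 11.78 in dispersed cells in DMSO, against 10.75, 10.60 and 10.43 in fresh cells. Its rise was 1.14 ± 0.14 in aggregates (adjusted p = 2.17e-05) and 1.27 ± 0.14 in dispersed cells (adjusted p = 6.17e-06), again without overlap.

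Trp53inp1 encodes a stress-induced nuclear protein that takes part in autophagy and in p53-dependent cell death, and it was the 1 gene of the 9 not called in DMSO. It had 12.18, 12.56 and 12.49 in aggregates in DMSO and 12.66, 12.44 and 12.57 in dispersed cells in DMSO, against 11.93, 12.54 and 12.17 in fresh cells. The fresh arrays overlapped with both cultures, and the changes of 0.20 ± 0.17 and 0.34 ± 0.17 were not called (adjusted p = 0.427 and 0.168), but without the second fresh array the change in dispersed cells was 0.51 and was called (adjusted p = 0.0451). In BIO it was called higher than in fresh cells, by 0.61 ± 0.17 in aggregates (adjusted p = 0.0117) and 0.65 ± 0.17 in dispersed cells (adjusted p = 0.0122), but without the first fresh array the values were 0.47 and 0.51 and neither was called. Neither was called with the mean of both probe sets (adjusted p = 0.0771 and 0.104) or with only the arrays compared (adjusted p = 0.0923 and 0.0885), and in aggregates the beta-actin covariate gave 0.74 (adjusted p = 0.187). Sesn2 encodes a sestrin, which restrains the growth kinase complex mTORC1 when amino acids run short, and is known to be raised by ATF4 as well as by p53. It had 8.39, 8.20 and 7.16 in aggregates in DMSO and 8.54, 8.47 and 8.10 in dispersed cells in DMSO, against 5.17, 6.64 and 6.82 in fresh cells. The first fresh array was below background and the spread was wide. The rise was 1.71 ± 0.45 in aggregates (adjusted p = 0.00990), which without the first fresh array was 1.19 (adjusted p = 0.0529) and with only the arrays compared had an adjusted p of 0.0926. The Sesn2 call in aggregates in BIO, 1.53 ± 0.45 (adjusted p = 0.0184), was also lost without the first fresh array, at 1.01 (adjusted p = 0.0942), and without the third BIO array, at 1.36 (adjusted p = 0.0641). In dispersed cells it was 2.16 ± 0.45 in DMSO (adjusted p = 0.00204) and 2.81 ± 0.45 in BIO (adjusted p = 3.24e-04). The dimmer Sesn2 probe set averaged 5.53 in fresh cells, near background, and 6.93 in aggregates and 7.22 in dispersed cells in DMSO. In BIO for 24 h it averaged 8.75 in aggregates and 8.60 in dispersed cells. At 48 h it averaged 5.78 after the switch and 6.54 in BIO throughout.

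**Figure D2:**
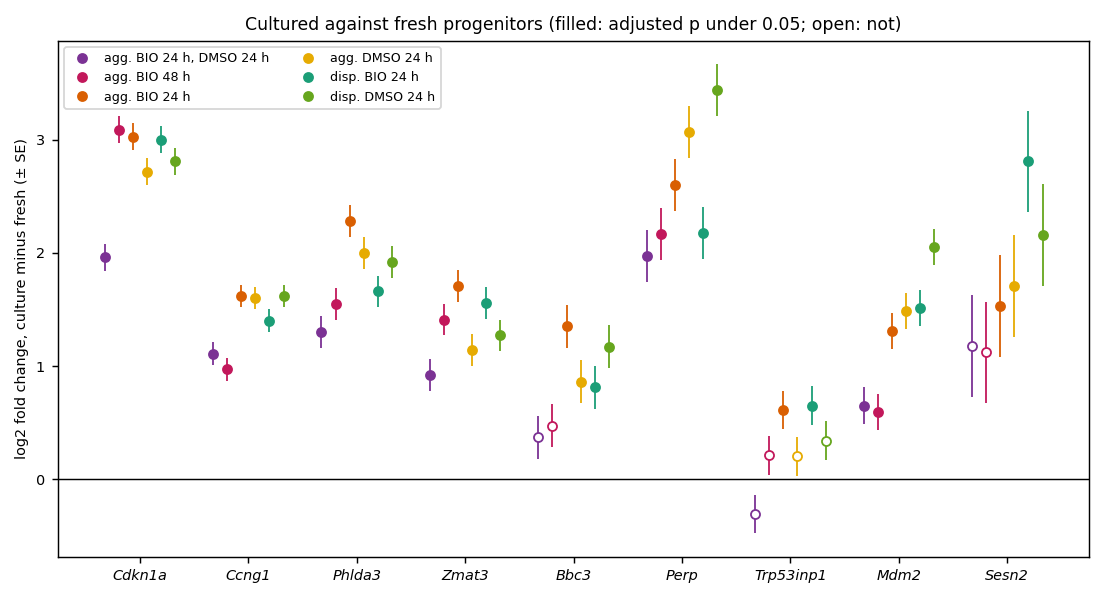
Change of each gene from fresh cells in the 6 cultures, as the difference of mean log2 levels (vertical axis) ± SE from the limma fit, with n = 3 arrays in each group. Filled points have an adjusted p under 0.05 and open points do not; Cdkn1a is filled in all 6 cultures, between 1.96 and 3.09, and Trp53inp1 is filled only in the 2 cultures with BIO for 24 h.

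Other p53 targets, set in lists of textbook genes, also had more genes higher than lower in culture with DMSO. In aggregates in DMSO against fresh cells, 7 of 14 genes of cell cycle arrest and repair were higher and 3 lower, with a median change of 1.03. Plk3, a stress-activated kinase, was at least 5.96-fold higher (its fresh level was below background), Rprm, which arrests cells in G2, rose by 2.06, and Ddb2, a DNA damage sensor, fell by 1.45. Of 10 targets with a role in death 6 were higher and 1 lower (median 0.70). Pmaip1, which encodes the BH3-only protein NOXA, was at least 6.84-fold higher, the death receptor gene Fas at least 2.29-fold higher, and the receptor gene Eda2r rose by 3.04. Of 7 measured targets of metabolism and signalling 6 were higher and none lower (median 0.76), led by Thbs1, an inhibitor of vessel growth, with 3.69, the carbonyl reductase gene Dcxr with 1.72 and the fructose bisphosphatase gene Tigar with 1.16. Dispersed cells in DMSO gave 8 higher and 3 lower, 6 higher and none lower, and 5 higher and none lower in the same 3 lists.

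The upstream regulators of p53 had no gene higher in DMSO. Of 10 measured genes, 6 were lower and none higher than fresh both in aggregates (median -0.47) and in dispersed cells (median -0.48). Mdm4, the relative of Mdm2 that binds p53 and blocks its activity, changed by -1.63 in aggregates and -1.14 in dispersed cells. The checkpoint kinase genes Chek2 and Chek1 changed by -0.71 and -0.63 in aggregates and by -1.0 and -0.69 in dispersed cells. In BIO for 24 h the regulators had 2 higher and 1 lower in aggregates and 1 higher and none lower in dispersed cells, shares near those over all genes (20.0% higher and 10.9% lower in aggregates, 10.7% higher and 11.4% lower in dispersed cells). Relatives of the 9 genes outside the target list had 8 higher and 4 lower of 12 in aggregates in DMSO. Among them Cdkn2b, a CDK inhibitor of another family, was at least 3.52-fold higher and Trp53inp2, a relative of Trp53inp1 with a part in autophagy, rose by 2.03.

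Stress and cell cycle genes moved beside the 9 genes, and their part in the p53 target levels was not tested. The integrated stress response, through which ATF4 raises amino acid and stress genes, had 12 higher and none lower of 13 genes in aggregates in DMSO. Its median change was 1.51, or 1.31 with genes below background in fresh cells set at their bound. Nupr1, a stress-induced chromatin protein, was at least 4.4-fold higher, the transcription factor gene Atf3 rose by 3.88 and Chac1, which degrades glutathione, rose by 3.81. The list had 11 or 12 higher and none lower in each of the 6 cultures. The cell cycle genes had 1 higher and 5 lower of 17 in aggregates in DMSO and 0 higher and 8 lower in dispersed cells, with Ccnd1, the G1 cyclin, changed by -1.74 and -1.56, and the mitotic kinase gene Plk1 changed by -0.93 and -1.04. The BCL2 family had 2 higher and 3 lower of 9 in aggregates in DMSO, and the survival gene Bcl2 fell by 0.88.

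Counting both directions, the 9 genes were called between BIO and DMSO at 24 h no more often than all genes were. In aggregates 1 of 9 was called higher and none lower, where 14.9% of all genes were higher and 11.1% lower. The median change was 0.28, against 0.09 over all genes. The called gene was Zmat3, with 12.25, 12.15 and 12.52 in BIO and 11.51, 11.86 and 11.85 in DMSO. No array in BIO was as low as any in DMSO, and the change was 0.57 ± 0.14 (adjusted p = 0.00982). Without the first DMSO array it was 0.45 (adjusted p = 0.0536), and under the beta-actin covariate it was 0.61 (adjusted p = 0.200). Cdkn1a was 0.31 ± 0.12 higher in BIO in aggregates (adjusted p = 0.0901), with its 3 arrays all above those in DMSO. Sesn2 read -0.18 ± 0.45 by its brighter probe set (adjusted p = 0.845) and 1.82 ± 0.52 by its dimmer one (adjusted p = 0.0213). With the beta-actin covariate the brighter probe set read 2.08 (adjusted p = 0.0211).

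In dispersed cells BIO lowered 2 of the 9 genes and raised none, where 13.1% of all genes were higher and 11.7% lower. The median change was -0.22, against 0.02 over all genes. Perp had 8.37, 8.44 and 8.29 in BIO and 9.58, 9.57 and 9.74 in DMSO. The arrays in BIO all lay below those in DMSO, with a change of -1.26 ± 0.23 (adjusted p = 8.37e-04), and Perp remained 2.18 ± 0.23 above fresh cells in BIO. In aggregates its change with BIO was -0.47 ± 0.23 (adjusted p = 0.182). Mdm2 had 10.99, 10.79 and 10.94 in BIO and 11.55, 11.31 and 11.46 in DMSO, a change of -0.54 ± 0.16 (adjusted p = 0.0315). The groups did not overlap, but leaving out either the first or the third DMSO array, or any 1 of the BIO arrays, took its adjusted p to between 0.0530 and 0.113. With the mean of its probe sets Mdm2 read -0.50 (adjusted p = 0.272). Cdkn1a changed by 0.19 ± 0.12 with BIO in dispersed cells (adjusted p = 0.341). Sesn2 changed by 0.65 ± 0.45 (adjusted p = 0.391), and with the beta-actin covariate by 1.35 (adjusted p = 0.00575).

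The Bbc3 estimates had opposite signs with BIO in the 2 kinds of culture. It had 8.57, 8.85 and 8.97 in BIO against 8.15, 8.33 and 8.44 in DMSO in aggregates, and 8.13, 8.15 and 8.47 in BIO against 8.70, 8.56 and 8.58 in DMSO in dispersed cells. The changes of 0.49 ± 0.19 and -0.36 ± 0.19 were not called (adjusted p = 0.0821 and 0.220). The difference between them, 0.85 ± 0.26, was not called either (adjusted p = 0.217). For that difference of BIO effects none of the 9 genes was called by limma, where 0.390% of all genes were called higher and 0.544% lower. At an unadjusted p under 0.05 there were 3 of the 9, and the share of all genes at that threshold was not counted.

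The drug acted on its own pathway in both cultures. Axin2, a direct target of beta-catenin, changed by 3.32 in aggregates and 4.25 in dispersed cells with BIO, and Lef1, a partner of beta-catenin on DNA, by 3.47 and 3.74. Among the p53 regulators BIO raised 5 of 10 in aggregates and 4 in dispersed cells and lowered none, with Mdm4 higher by 1.07 and 0.86 and Chek2 by 1.19 and 1.12. Of the other p53 targets with a role in death BIO raised 3 of 10 and lowered none in aggregates, led by Pidd1 with 2.37, and raised 2 and lowered 3 in dispersed cells, where Fas was at least 2.27-fold lower. Thbs1 changed by -3.36 in aggregates and -3.62 in dispersed cells. The cell cycle list had 11 higher and none lower of 17 in aggregates and 9 higher and none lower in dispersed cells. Of 6 stromal markers BIO lowered 5 in each culture, and raised 1 in dispersed cells. Their signals summed to 3590 to 3920 in aggregates in BIO against 13300 to 14200 in DMSO, and to 3190 to 3400 in dispersed cells in BIO against 12400 to 13400 in DMSO, with none below background in any group. Leukocyte markers summed to 906 to 1520 in aggregates in BIO against 1600 to 1850 in DMSO, with 1 of 6 called higher and 1 lower, and to 603 to 769 in dispersed cells in BIO against 1470 to 1780 in DMSO, with 4 lower. Ptprc, which marks all leukocytes, averaged below background in aggregates in DMSO through its first array alone, with 2.83, 6.03 and 6.03. In dispersed cells in BIO it was below background on every array. The part of either marker list in the p53 target levels was not tested.

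On the second day several targets were lower than at 24 h, and Cdkn1a was lower after BIO was withdrawn. In aggregates kept in BIO 4 of the 9 genes were lower at 48 h than at 24 h and none higher, where 6.98% of all genes were higher and 10.7% lower. The median change was -0.43, against -0.08 over all genes. Ccng1 had 12.98, 13.02 and 12.97 at 48 h and 13.68, 13.61 and 13.62 at 24 h, a change of -0.65 ± 0.10 (adjusted p = 4.07e-04), and its dimmer probe sets read -1.19 and -1.88. Bbc3 fell by 0.88 ± 0.19 (adjusted p = 0.00463), Phlda3 by 0.73 ± 0.14 (adjusted p = 0.00188) and Mdm2 by 0.72 ± 0.16 (adjusted p = 0.00729). In these 4 genes no array at 48 h was as high as any at 24 h. The genes were picked by the call, so this adds no support to it, and how often it held over all genes was not counted. All 4 calls were lost when only the 6 arrays compared were fitted, with adjusted p between 0.0543 and 0.125. They were also lost with the Gapdh 3′ over 5′ ratio as a covariate, where the changes were -0.68 for Bbc3, -0.60 for Phlda3, -0.52 for Ccng1 and -0.51 for Mdm2. That ratio was 6.34 to 8.96 in BIO at 48 h and 10.4 to 13.7 in BIO at 24 h. With the beta-actin covariate Phlda3 and Sesn2 were called lower, while Bbc3 (-0.84 ± 0.31), Mdm2 (-0.68 ± 0.27) and Ccng1 (-0.53 ± 0.16) were not. On every array at 48 h the Gapdh ratio was lower, and the beta-actin control higher, than on every array at 24 h. Both covariates thus overlap with this comparison, and a call lost under them does not decide whether these genes fell. Cdkn1a changed by 0.06 ± 0.12 in BIO throughout (adjusted p = 0.805), and its arrays overlapped.

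With DMSO in place of BIO on the second day 7 of the 9 genes were lower than at 24 h in BIO and none higher, where 8.03% of all genes were higher and 14.3% lower. The median change was -0.80, against -0.16 over all genes. Cdkn1a had 12.32, 12.18 and 11.76 after the switch and 13.11, 13.10 and 13.26 at 24 h, a change of -1.07 ± 0.12 or a 2.10-fold fall (adjusted p = 1.64e-05). The mean of both Cdkn1a probe sets, of which the dimmer is scattered in aggregates, turned this to 0.06 (adjusted p = 0.957). Phlda3 fell by 0.99 ± 0.14, Bbc3 by 0.98 ± 0.19, Trp53inp1 by 0.92 ± 0.17 and Zmat3 by 0.80 ± 0.14, with adjusted p between 1.23e-04 and 0.00163. Mdm2 fell by 0.66 ± 0.16 (adjusted p = 0.00925) and Ccng1 by 0.51 ± 0.10 (adjusted p = 0.00206). The groups did not overlap in any of these 7 genes. They were picked by the call, so this adds no support to it, and the share of all genes without overlap was not counted. With only the 6 arrays compared 4 of the 7 were called, and Mdm2 (adjusted p = 0.107), Ccng1 (0.0797) and Zmat3 (0.0593) were not. With the mean of all probe sets Mdm2 read -0.04 (adjusted p = 0.943), Trp53inp1 -0.77 (adjusted p = 0.0514) and Sesn2 -1.66 (adjusted p = 0.00769). The other 2, Perp with -0.63 ± 0.23 (adjusted p = 0.0642) and Sesn2 with -0.35 ± 0.45 (adjusted p = 0.637), were not called, although without the second switched array Perp was, at -0.79 (adjusted p = 0.0410). With the beta-actin covariate 3 of the 9 were called lower, Cdkn1a, Phlda3 and Sesn2. Calls were lost for Ccng1 (-0.33 ± 0.21, adjusted p = 0.526), Mdm2 (-0.61 ± 0.36, 0.490), Bbc3 (-0.92 ± 0.40, 0.324), Trp53inp1 (-1.08 ± 0.36, 0.167) and Zmat3 (-0.85 ± 0.31, 0.215). Their estimates stayed negative while their SE grew. On every array of BIO at 24 h the control was lower than on every switched array, so the covariate overlaps with this comparison. These 2 comparisons share the 24 h arrays in BIO, whose beta-actin control is low.

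**Figure D3:**
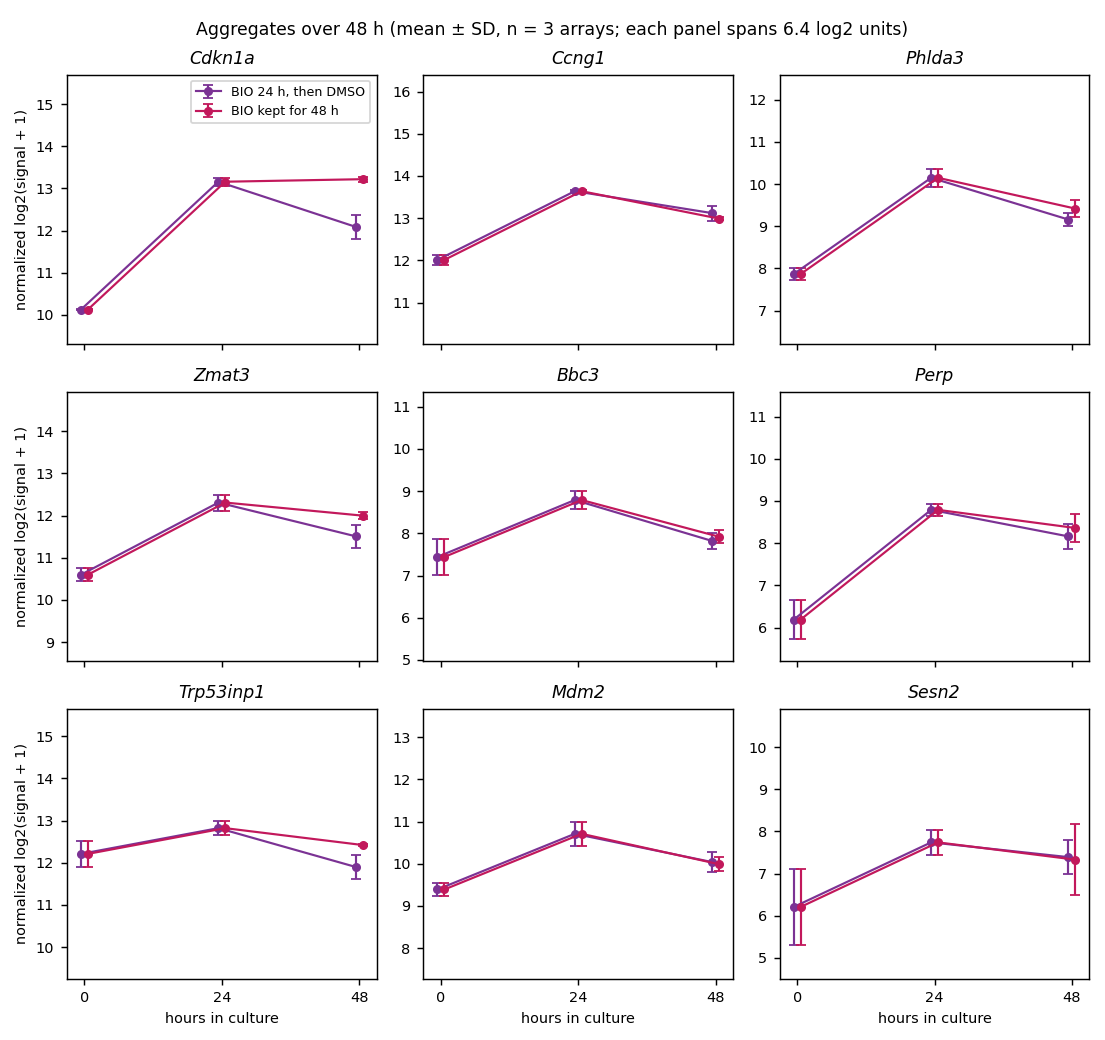
Mean level ± SD (n = 3 arrays) of the 9 genes in fresh cells and in aggregates at 24 and 48 h of culture, the horizontal axis, with BIO on the first day and DMSO or BIO on the second. Both lines share the 0 and 24 h points; Cdkn1a ends at 12.09 after the switch and at 13.22 in BIO throughout, while the lines of Mdm2 end at 10.04 and 9.99.

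The 48 h groups against each other show the effect of withdrawing BIO at equal time in culture. After the switch to DMSO 2 of the 9 genes were lower than in BIO throughout and none higher, where 7.89% of all genes were higher and 9.15% lower. The median change was -0.20, against -0.06 over all genes. Cdkn1a had 12.32, 12.18 and 11.76 after the switch and 13.29, 13.20 and 13.16 in BIO throughout. The groups did not overlap, and the change was -1.13 ± 0.12, a 2.19-fold fall (adjusted p = 7.76e-06). With the mean of both probe sets it was -1.50 and was not called (adjusted p = 0.0655). After the switch Cdkn1a was still 3.88-fold above fresh cells. Zmat3 had 11.73, 11.60 and 11.21 after the switch and 12.06, 12.05 and 11.91 in BIO throughout, a change of -0.49 ± 0.14 (adjusted p = 0.0336). The arrays did not overlap, but leaving out the third switched array gave -0.34 (adjusted p = 0.152), and the call was lost without the second switched array or without the first or the second array of BIO throughout. Trp53inp1 changed by -0.51 ± 0.17 (adjusted p = 0.0560), and was called without the second switched array, at -0.62 (adjusted p = 0.0440). Ccng1 changed by 0.13 ± 0.10 by its brightest probe set (adjusted p = 0.468), but a dimmer one was higher, at 10.45 after the switch and 9.84 in BIO throughout (0.61 ± 0.17, adjusted p = 0.0249), and the mean of its 3 probe sets was called higher at 0.42 (adjusted p = 0.0234). Changes in the other 5 genes lay between -0.26 and 0.06.

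The cell cycle list moved with the same withdrawal. It had 13 higher and none lower of 17 genes after the switch than in BIO throughout, with a median of 1.19, led by Cdc25c with 1.79, Birc5 with 1.60 and Ccnd1 with 1.48. In BIO throughout the list was lower at 48 h than at 24 h in 14 of 17 genes and higher in none (median -1.14). The cell cycle genes and Cdkn1a moved in opposite directions on withdrawal, while on the second day in BIO the cycle genes fell and Cdkn1a did not pass the test. At 24 h BIO raised cell cycle genes in both kinds of culture, where the Cdkn1a estimates were also higher in BIO but not called. A link between Cdkn1a and the cell cycle genes was not tested. Other p53 targets were mixed. Of 14 arrest and repair targets 4 were higher and 1 lower after the switch, and Ckap2 and Gtse1, which are themselves high in dividing cells, rose by 1.31 and 1.10. Of 10 targets with a role in death 1 was higher, Pmaip1 with 1.46, and 1 lower, Bid with -0.66. Stromal markers summed to 10100 to 11500 after the switch and 1950 to 2530 in BIO throughout, and the part of this in the fall of Cdkn1a was not tested.

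**Figure D4:**
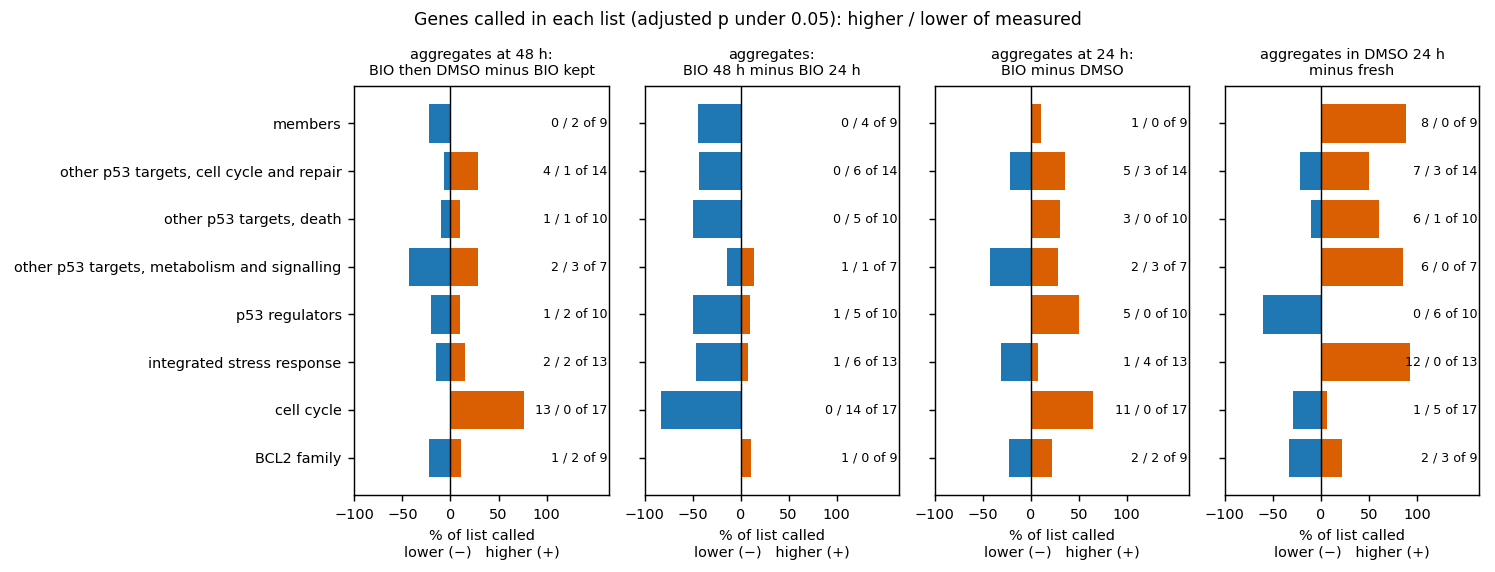
Share of each gene list called higher (orange, to the right) or lower (blue, to the left) in 4 comparisons, in percent of the measured genes of the list, with the counts as higher / lower of measured. The 9 genes, written as members, have 8 higher in aggregates in DMSO against fresh cells, and the cell cycle list has 14 of 17 lower at 48 h than at 24 h in BIO and 13 of 17 higher after the switch to DMSO.

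Between aggregates and dispersed cells few of the 9 genes were called. In DMSO none was called by limma, where 1.54% of all genes were higher and 0.698% lower in aggregates. At shares this low none of 9 is the usual outcome and says little about these genes. At an unadjusted p under 0.05, where the share of all genes was not counted, there was 1, Mdm2, with -0.56 ± 0.16 (adjusted p = 0.0783). The trended robust prior called 1 gene lower. In BIO 1 gene was higher in aggregates and none lower, where 11.0% of all genes were higher and 4.00% lower. That was Phlda3, with 10.07, 10.0 and 10.39 in aggregates and 9.68, 9.43 and 9.48 in dispersed cells, a change of 0.62 ± 0.14 (adjusted p = 0.00658). The groups did not overlap. With the beta-actin covariate its change was 0.81 (adjusted p = 0.115). Sesn2 read -1.29 ± 0.45 (adjusted p = 0.0659).

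Probe sets of the same gene did not always agree. The dimmer Cdkn1a probe set was below background on all 3 fresh arrays, with 3.07, 4.10 and 2.63, and read 8.89, 9.32 and 9.28 in dispersed cells in DMSO, at least 13.4-fold higher (adjusted p = 3.65e-04). In aggregates it was scattered, with 3.65, 7.06 and 8.49 in BIO and 8.87, 8.52 and 5.79 in DMSO at 24 h, and the lowest reading of each of these groups fell on its array with the lowest beta-actin control, though the part of that in the scatter was not tested. It alone gave a call between aggregates and dispersed cells in BIO, -3.56 ± 1.01 (adjusted p = 0.0256), which the brighter probe set did not share at 0.03 ± 0.12. The middle Mdm2 probe set had 8.60, 8.82 and 8.41 in aggregates and 9.75, 9.66 and 9.95 in dispersed cells in DMSO, a change of -1.18 ± 0.18 (adjusted p = 0.00381). The dimmest Mdm2 probe set had group means between 4.53 and 5.63, around background, and no call in any comparison. The dimmer Sesn2 probe set had 8.28, 8.96 and 9.0 in aggregates after BIO for 24 h and changed from there by -2.21 ± 0.52 in BIO at 48 h (adjusted p = 0.00918) and by -2.96 ± 0.52 after the switch (adjusted p = 8.66e-04).

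**Figure D5:**
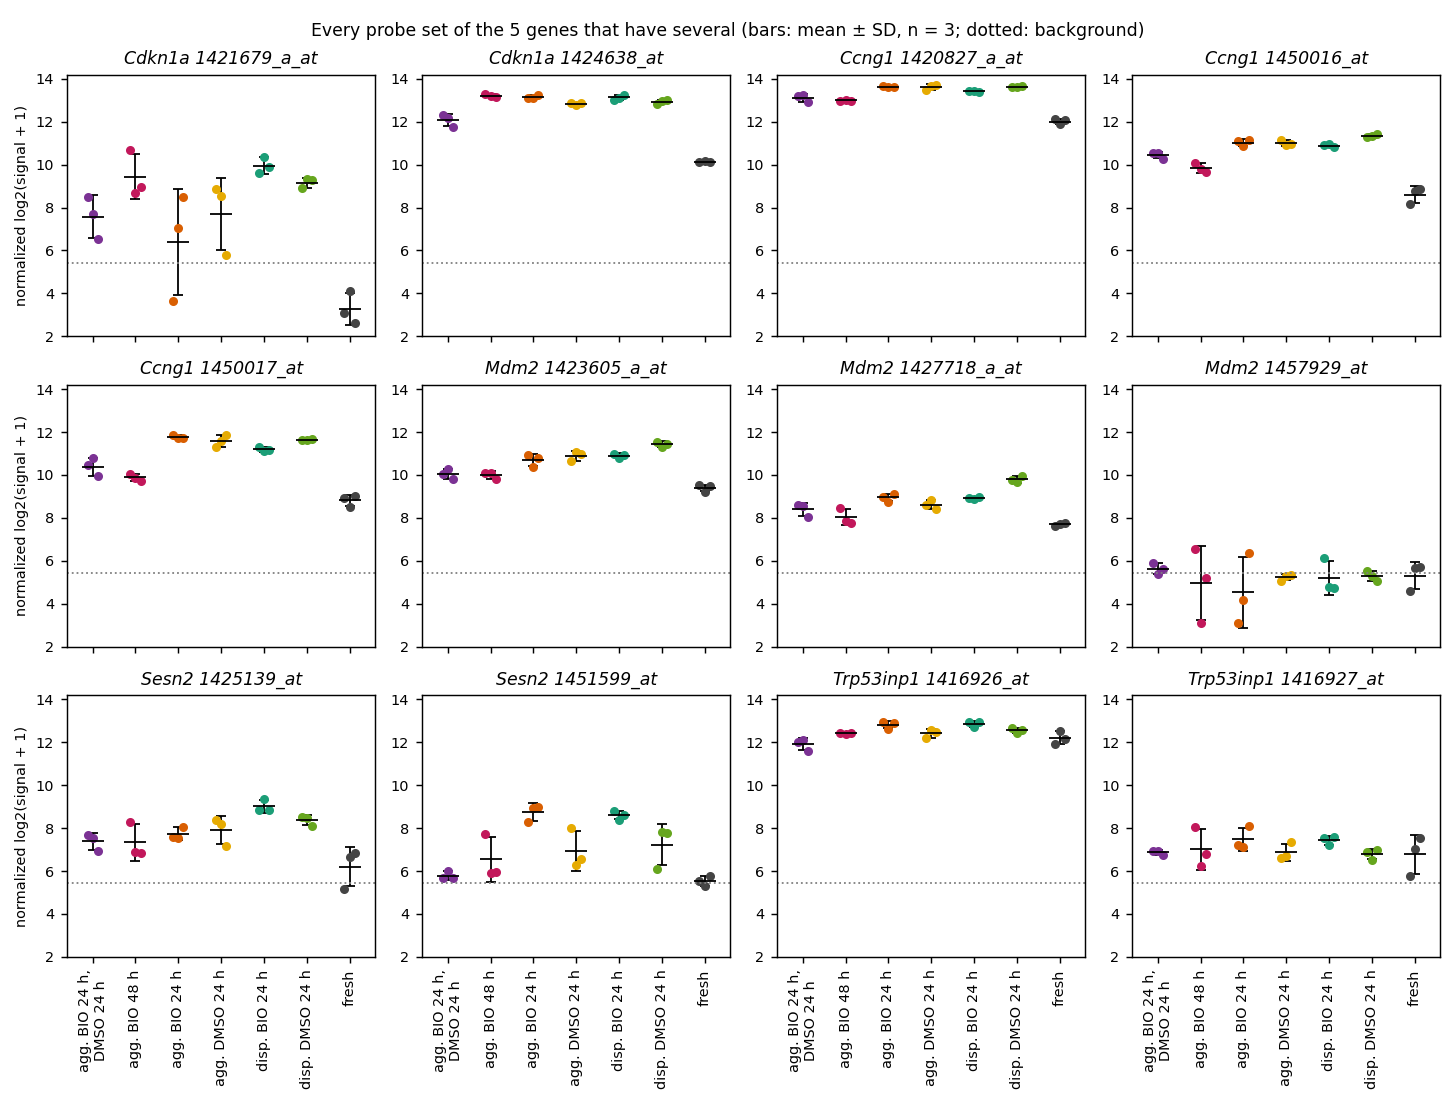
Every probe set of the 5 genes that have more than 1, as normalized log2(signal + 1) on each array, with mean ± SD of the 3 arrays of a group and background as a dotted line at 5.42. The 3 Ccng1 probe sets all have their lowest mean in fresh cells, but differ in level and in the size of their changes. The dimmer Cdkn1a probe set is scattered between 3.65 and 8.49 in aggregates in BIO for 24 h.

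Across the 7 group means the 9 genes followed each other to different degrees, given here as a description. Pearson's r with Cdkn1a was 0.97 for Zmat3, 0.93 for Phlda3, 0.88 for Ccng1, 0.86 for Perp, 0.78 for Sesn2, 0.76 for Bbc3, 0.72 for Mdm2 and 0.58 for Trp53inp1. The highest r among the other pairs was 0.97, for Ccng1 with Phlda3. All these values share the gap between fresh and cultured cells and the same 21 arrays. Among 15365 genes ranked by r with Cdkn1a over the 7 group means, the first 5 were Tmco1 (0.994), Dennd1b (0.992), Lipa (0.989), Erap1 (0.983) and Elovl4 (0.981), and Zmat3 stood at rank 14. Elovl4, which elongates very long fatty acids, averaged 9.18 in BIO for 48 h and 8.43 after the switch, against 7.14 in fresh cells.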

How the data were processed

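Mouse 3′ expression arrays were analysed from the deposited series table, whose values are linear signal intensities between 0.1 and 18025.33, as deposited by the authors. Their software and scaling: not given in the sources used here. Per the labels' protocols RNA went through 2 rounds of amplification before biotin labelling, which can weaken probe sets far from the 3′ end. Probe sets were named through the platform annotation and RefSeq: of 45101, 34945 had 1 symbol (34741 through RefSeq), 932 several, 9160 none, and 64 were controls. Tests used limma (version 3.58.1, R 4.3.3) on quantile-normalized log2(value + 1), with 1 mean per group (14 residual and 1.68 prior degrees of freedom) and Benjamini-Hochberg adjustment over 45037 probe sets. The fit was tested on simulated data. Where 1 group lay below background the text gives at least so many fold. The 3 arrays of each group limit the precision. At most 0.288% of values were identical between any pair of arrays.

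The genes and lists were chosen with earlier results of these data known. Named genes are all 9 measured, Mdm4, the 5 most like Cdkn1a, Axin2, Lef1, Six2 and Cited1, and from each list at most the 3 called genes with the largest change in a comparison, or the 1 largest where none was called. The alternatives were other scalings, log2(value + 16), a filter on dim probe sets, the mean of all probe sets, only the arrays compared, a trended robust prior, a block for the replicate number and leaving out each array. The beta-actin and Gapdh covariates were chosen after seeing the data, as was the promoter search.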

Additional observations from a re-analysis of the deposited data

Results flagged for a closer look

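The middle Mdm2 probe set responded to BIO differently in the 2 kinds of culture, by a test of the difference itself. In aggregates it had 8.96, 8.76 and 9.12 in BIO against 8.60, 8.82 and 8.41 in DMSO, a change of 0.34 ± 0.18 (limma adjusted p = 0.239), and in dispersed cells 8.93, 8.86 and 8.95 in BIO against 9.75, 9.66 and 9.95 in DMSO, a change of -0.88 ± 0.18 (adjusted p = 0.00268). The difference was 1.22 ± 0.26 (adjusted p = 0.0463). The brightest Mdm2 probe set gave 0.36 ± 0.23 for the same difference (adjusted p = 0.650).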

How the results depend on the processing

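Over 1260 recomputed changes of single genes (9 genes, 14 comparisons, 10 settings), 1174 kept their direction and side of the threshold, 53 lost and 30 gained a call and 3 reversed. Leaving out 1 array at a time kept 785, lost 20 and gained 5. The reversed values were 2.08 for Sesn2 with BIO in aggregates under the beta-actin covariate, and, with the mean of all probe sets, 0.06 for Cdkn1a after the switch against BIO at 24 h and -1.76 for Cdkn1a between aggregates and dispersed cells in BIO. The counts of the 9 genes called against fresh cells stayed within 1.5 times under every setting. For BIO in aggregates 3 were higher with the trended robust prior and 0 with only the arrays compared. For BIO in dispersed cells the beta-actin covariate gave 1 higher and 1 lower and the Gapdh covariate 1 lower. At 48 h against 24 h in BIO, 0 were lower with only the arrays compared, 2 with the beta-actin and 0 with the Gapdh covariate. After the switch against BIO at 24 h, 4 were lower with only the arrays compared and 3 with the beta-actin covariate. After the switch against BIO throughout, the mean of all probe sets gave 1 higher and 1 lower, and only the arrays compared and the beta-actin covariate 1 lower each. Between aggregates and dispersed cells in DMSO 1 was lower with the trended robust prior. In BIO that comparison gave 2 higher with median centring, log2(value + 16) or the dim filter, 3 with the trended robust prior and 0 with only the arrays compared or the beta-actin covariate. It gave 1 lower with the deposited scaling, log2(value + 16), the mean of all probe sets, the trended robust prior or only the arrays compared. Leaving out 1 array gave 0 to 1 higher for BIO in aggregates (0 without the first DMSO array), 1 to 2 lower for BIO in dispersed cells and 1 to 2 lower after the switch against BIO throughout.

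The replicate number as a block left 125 of 126 changes as they were and gave 1 gene lower after the switch against BIO throughout, Zmat3 having an adjusted p of 0.0501. Same-numbered arrays deviated together at r between -0.172 and 0.121 (median -0.018 over 63 pairs). No pairing by number showed in these deviations, and a shared sort or day was not tested. Counts over all genes moved by over 1.5 times most often with only the arrays compared (20 of 28, down to 0.0357 times), then the beta-actin covariate (12, down to 0.0306 times), the Gapdh covariate (7) and the deposited scaling (5), and leaving out 1 array moved 31 of 180 such counts, down to 0.318 times. The share of higher among called genes was 64.7% for aggregates in BIO at 24 h against fresh cells and 48.3% with the deposited scaling, where the median of all genes was 0.04 in place of 0.18. That share was 57.3 and 46.4% for BIO in aggregates, 35.9 and 53.7% after the switch against BIO at 24 h, 68.8 and 39.9% between aggregates and dispersed cells in DMSO, and 73.3 and 47.2% in BIO. Median centring gave 68.9%, where the main value was 56.2%, in aggregates in DMSO against fresh cells. The cause of these shifts was not tested.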

Other observations

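Relatives of the 9 genes moved widely in aggregates on the second day. Phlda2, an imprinted relative of Phlda3, changed by 3.04 at 48 h against 24 h in BIO and by -3.55 after the switch to DMSO against BIO throughout. Pmp22, a membrane protein related to Perp, changed by 5.33 after the switch against BIO throughout. Cdkn1c, a sister of Cdkn1a, changed by 2.61 at 48 h against 24 h in BIO and by -2.28 in BIO against DMSO in aggregates at 24 h. In the BCL2 family Bik changed by -2.05 and Bmf by 0.74 after the switch against BIO throughout.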
